A study of Mus musculus with 6 samples.

Results

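The genes described here are 10 members of the FOS, JUN and EGR immediate early families, namely Fos, Fosb, Fosl2, Jun, Junb, Jund, Egr1, Egr2 and Egr3, together with Ier2. They were matched by gene name and make up 10 of the 54446 genes quantified in every library. All 10 had a mean of at least 1 FPKM (sequenced fragments scaled to the length of the transcript and to the size of the library) over the 6 libraries and entered the tests. A gene is called where the difference reached 2-fold on the log2(FPKM + 1) scale with limma's unadjusted p no higher than 0.05. RNA-seq was carried out on splenic CD8+ T cells of 8-week-old C57BL/6 mice, in 3 groups of 2 libraries, with no engineered allele in any group. Unstimulated cells were fresh cells that were not cultured. Control cells were cultured for 72 h on plate-bound anti-CD3 with anti-CD28, antibodies that engage the T cell receptor complex and its co-receptor, in the absence of magnets. SMF-treated cells received the same stimulation for 72 h on permanent magnets that gave a static magnetic field of 0.3 T. Stimulation and culture came together in both cultured groups, so their parts in any difference from fresh cells cannot be told apart. The labels do not say which mice or cultures the 2 libraries of a group came from, so p-values measure only the spread between these libraries, which may be technical.

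Immediate early genes are transcribed within minutes of a signal at the cell surface, from factors that are already in the nucleus, and most of their transcripts are short-lived. FOS proteins pair with JUN proteins through leucine zippers to form AP-1, a factor that in T cells acts on cytokine and activation genes, often beside NFAT, while EGR proteins are zinc finger factors downstream of the T cell receptor, of which Egr2 and Egr3 are known to restrain activated T cells. Handling of tissue during cell isolation is also known to switch on several of these genes.

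The sequences upstream of Fos, Fosb, Jun and Egr2 are shown because they are 4 of the 5 genes called below between fresh and control cells, the first 3 lower and Egr2 higher in control cells. The window of the other, Fosl2, does not lie at the start of its transcript. Each line gives the 140 bases before the start site in the RefSeq table of build GRCm38.p6, read 5′ to 3′ on the strand of the gene. Capitals mark matches on either strand to the motifs searched, which were the CArG box bound by SRF, the CRE TGACGTCA and its 5-base part TGACG bound by CREB and ATF factors, the AP-1 site TGANTCA, the EGR site GCGNGGGCG, and TGACATCA, the AP-1 related site known from the Jun promoter.
Fos, chr12:85473750-85473889, plus strand: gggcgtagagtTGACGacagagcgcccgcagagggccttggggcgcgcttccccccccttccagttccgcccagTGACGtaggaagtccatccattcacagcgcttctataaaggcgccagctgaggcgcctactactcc
Fosb, chr7:19310046-19310185, minus strand: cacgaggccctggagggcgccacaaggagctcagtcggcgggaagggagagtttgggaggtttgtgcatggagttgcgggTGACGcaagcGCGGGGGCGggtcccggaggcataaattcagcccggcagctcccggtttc
Jun, chr4:95052223-95052362, minus strand: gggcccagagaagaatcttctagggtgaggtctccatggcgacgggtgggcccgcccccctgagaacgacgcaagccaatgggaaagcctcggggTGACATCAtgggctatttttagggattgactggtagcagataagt
Egr2, chr10:67537729-67537868, plus strand: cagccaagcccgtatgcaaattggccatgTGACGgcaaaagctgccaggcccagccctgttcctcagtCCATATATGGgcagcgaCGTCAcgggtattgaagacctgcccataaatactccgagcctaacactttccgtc

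In these windows the Fos promoter held TGACG at -129 and -66, counted from the start site to the first letter as printed. Fosb held TGACG at -60 and the EGR letters at -50, close to each other. Jun held TGACATCA at -45. Egr2 held a CArG box at -72 between 2 copies of TGACG at -111 and -55, the latter read on the other strand. RefSeq windows were searched for 7 of the 10 genes, each from 250 bases before to 50 bases after the start site. Junb held TGACG at -106 and Fosl2 the EGR letters at -79, and the Jund window held none of the motifs. The Fosl2 and Jund windows lay 671 and 1210 bases from the transcript start used in the files. Over all 32851 windows in the table, the CArG box was found in 1.63%, TGACGTCA in 1.79%, TGANTCA in 7.81%, GCGNGGGCG in 5.55%, TGACATCA in 3.62% and TGACG, which also counts every TGACGTCA, in 20.8%. A match describes letters only.

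The deposited values carry no read counts, and coverage summed over transcripts (reads per base times length) came to between 64.4 and 259 Mb a library. It was lowest in Unstimulated 1 and Control 1 and highest in the SMF libraries. Of the 14991 genes tested, between 9.17% and 19.7% were listed at 0 in a library. Protein-coding genes took 68.7% to 69.2% of the FPKM sum in the SMF libraries and 49.1% to 50.5% in the other 4. By the dates in the file headers, Unstimulated 1 and Control 1 share a month, Unstimulated 2 and Control 2 share another, and both SMF libraries share a later one. What these dates mark is not stated, and libraries that share one are called a run here. Run and field cannot be told apart. Cd3d, Cd3e, Cd8a and Cd8b1 were above 0 in all 6 libraries, with a summed level of 200 to 544 FPKM. Cd8a (-1.08) and Cd8b1 (-1.31) were called lower in control than in unstimulated cells, and Cd8a (2.01) and Cd3d (1.40) were called higher with the SMF than in control cells. Of the CD4+ T cell markers, Cd4 reached at most 4.68 FPKM and Foxp3 stood between 4.92 and 20.7 FPKM. All 6 activation genes examined, Gzmb and Il2ra among them, were called higher in both cultured groups than in fresh cells.

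Junb and Jund stood at the top of the order of levels in all 3 groups and Fos, next in order in unstimulated cells, stood last in control cells. In unstimulated cells Junb (93.0 and 107 FPKM) and Jund (93.1 and 110 FPKM) overlapped, and Fos followed at 37.3 and 40.1 FPKM, clear of the genes on either side. Ier2 and Jun came next with overlapping ranges, then Fosb and Egr1, which overlapped, and then Egr3, Fosl2 and Egr2, of which Fosl2 overlapped both others. In control cells Jund and Junb again overlapped and were followed by Ier2, Egr1 and Fosl2, each clear of its neighbours, and by Egr3, Jun and Egr2, which overlapped. Fosb (0.572 and 0.744 FPKM) and Fos (0 and 1.27 FPKM) overlapped at the end of the order. In SMF-treated cells Junb and Jund overlapped, Ier2 and Egr3 were each clear of their neighbours, Fosl2, Egr2 and Egr1 overlapped, Jun and Fos overlapped, and Fosb was below both. FPKM is a level per length, so these orders compare genes, and the plot of levels by library shows the same values.

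**Figure D1:**
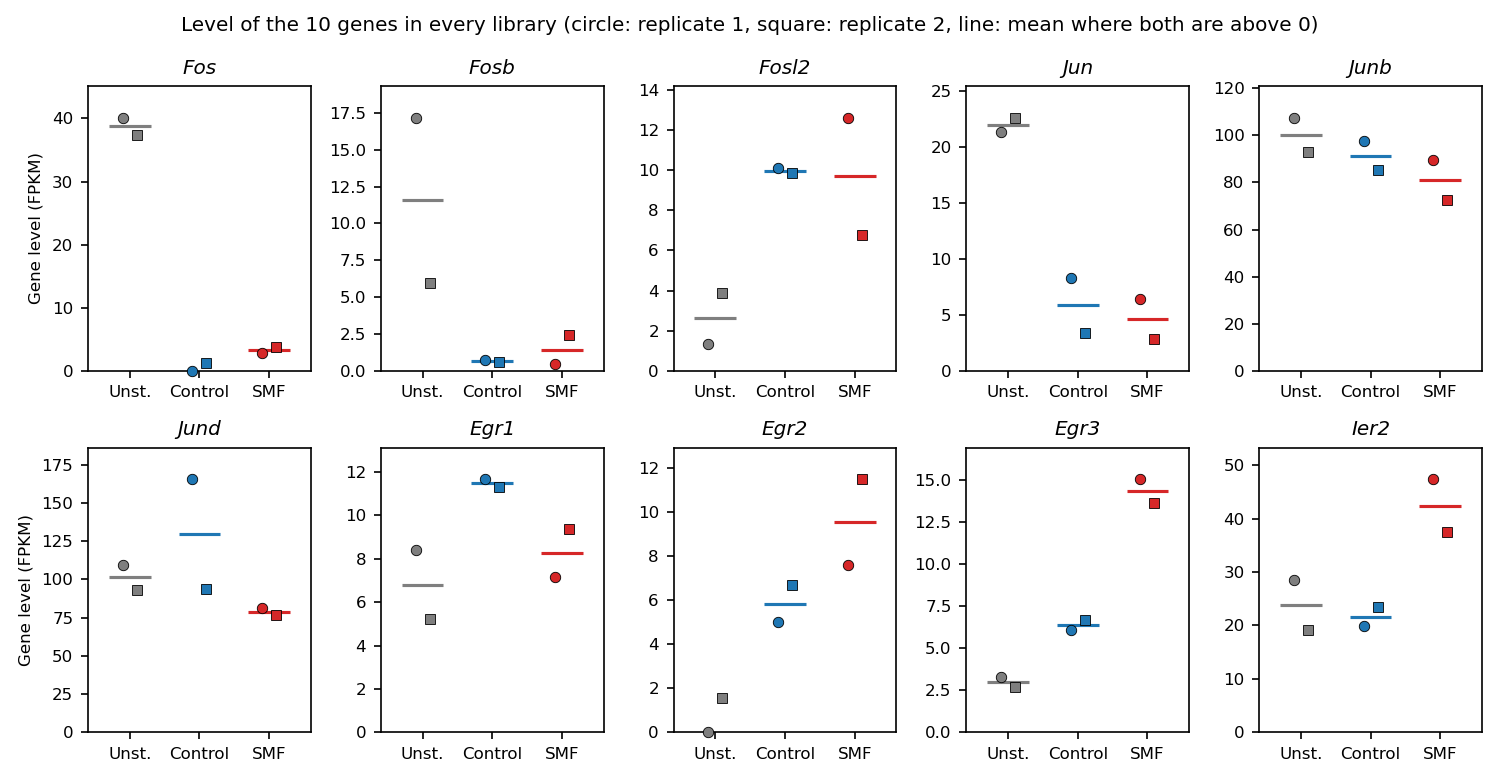
Level of each of the 10 genes in FPKM (vertical axes, from 0, each panel with its own range) in the 2 libraries of the unstimulated (Unst.), control and SMF groups; circles are replicate 1, squares replicate 2, and the line is the mean of the 2, drawn only where both are above 0. Fos lies at 37.3 and 40.1 FPKM in unstimulated cells and at 3.74 FPKM or less in every cultured library, while Egr3 lies at 13.6 and 15.0 FPKM in SMF-treated cells, above the other 4 libraries.

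Compared with unstimulated cells, control cells had lower Fos, Fosb and Jun and higher Fosl2 and Egr2. These 5 of the 10 genes were called. Of all genes tested, 24.8% were called in this comparison, 12.3% higher and 12.6% lower, beside 2 higher and 3 lower of these 10. The groups did not overlap for 4 of the 10 genes that were higher in both control libraries and 3 that were lower, beside 24.8% and 26.6% of all genes. The median difference of the 10 genes was 0.09 on the log2 scale, beside -0.05 over all genes tested. Only Fos of the 10 also had an adjusted p under 0.05 by limma with the Benjamini-Hochberg adjustment, where 8.48% of all genes did.

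SMF-treated cells had the same 5 genes called in the same directions against unstimulated cells, and Egr3 higher as well. With 6 of the 10 genes called, 3 higher and 3 lower, the background was 37.2% of all genes, 22.4% higher and 14.8% lower. Both SMF libraries were above the unstimulated ones for 4 of the 10 genes and below for 5, beside 39.7% and 26% of all genes. Fos, Jun, Egr2 and Egr3 had an adjusted p under 0.05 by limma with the Benjamini-Hochberg adjustment, where 23.6% of all genes did. The median of the 10 genes was -0.02 and that of all genes 0.27. The unstimulated libraries are shared by these comparisons, so their values stand side by side and do not count as separate evidence.

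Compared with control cells, SMF-treated cells had higher Fos and Egr3 by the same rule, and none of the 10 genes was called lower. The 2 calls among 10 genes stand beside 18.2% of all genes called, 12.5% higher and 5.72% lower. Both SMF libraries were above the control ones for 4 of the 10 genes and below for 2, beside 37.4% and 17.4% of all genes. None of the 10 had an adjusted p under 0.05 by limma with the Benjamini-Hochberg adjustment, and 0.0267% of all genes did, while 3 of the 10 (Fos, Egr3 and Ier2) had an unadjusted p under 0.05 in limma's test. The median difference over all genes tested was 0.32 toward SMF-treated cells, and that of the 10 genes was 0.17. When every library was set to the same median, which moved this comparison by 0.34, none of the 10 genes was called. When every library was set to the same FPKM sum over coding genes of more than 1 exon, the 2 calls higher and 0 lower became 0 higher and 1 lower, the latter Jund at -1.02. Leaving out Control 1, SMF 1 or SMF 2 left 0 of the 10 genes called, and leaving out an unstimulated library left 1.

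**Figure D2:**
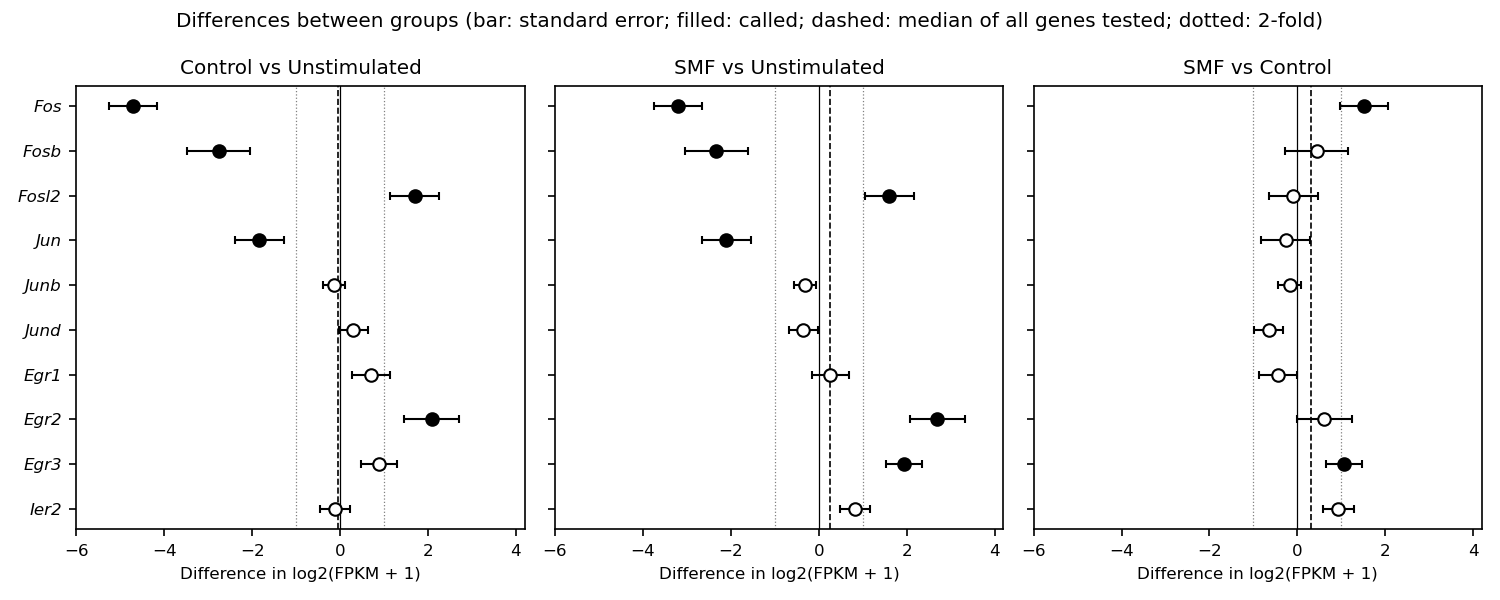
Difference in log2(FPKM + 1) between groups for the 10 genes (horizontal axis) in the 3 comparisons, with the standard error from limma as the bar. Filled points are called, the dashed line is the median of all genes tested and the dotted lines mark 2-fold; Fos lies at -4.72, -3.21 and 1.51 from left to right.

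Fos encodes the founding FOS subunit of AP-1 and lies on chromosome 12 (85473890 to 85477273, plus strand, 4 exons in its coding transcript). Its gene level was 40.1 and 37.3 FPKM in unstimulated cells, 0 and 1.27 FPKM in control cells, and 2.89 and 3.74 FPKM in SMF-treated cells. The 3 groups did not overlap, with fresh cells far above both cultured groups and SMF-treated cells above control cells. The 0 is the listed value of Control 1, the library with the lowest summed coverage. Against unstimulated cells Fos fell by 4.72 in control cells (SE 0.55, adjusted p = 0.0120 by limma with Benjamini-Hochberg adjustment) on the log2(FPKM + 1) scale. In SMF-treated cells it fell by 3.21 (adjusted p = 0.0130, the same test). Both calls were made in all 6 fits that left out 1 library, though not with coding transcripts alone, and the control difference was -5.36 and -4.07 within the 2 runs.

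The SMF value of Fos exceeded the control value by 1.51 on the log2 scale (SE 0.55, adjusted p = 0.208 by limma with Benjamini-Hochberg adjustment). This call held in only 1 of the 6 fits that left out a library, at 2.10 without Control 2. It was lost at 0.92 without Control 1, 1.65 without SMF 1, 1.37 without SMF 2 and 1.51 without either unstimulated library. With every library at the same median the difference was 1.17 and was not called.

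The transcripts behind the Fos level differed between libraries of the same group. The coding transcript stood at 1.24 FPKM in Unstimulated 1 and 29.4 FPKM in Unstimulated 2, at 0 and 0.00788 FPKM in control cells, and at 0.0341 and 3.74 FPKM in SMF-treated cells. A shorter noncoding transcript of the gene carried 33.8 FPKM in Unstimulated 1 and 7.80 FPKM in Unstimulated 2. Exon coverage, which is not scaled to the size of the library, was uneven and mostly thin. The longest exon of 1457 bases had 1.01 and 4.56 reads per base in unstimulated cells. It had 0 and 0.0103 in control cells, and 0.251 and 1.46 in SMF-treated cells. The third exon, of 108 bases, had 9.52 and 17.2 reads per base in unstimulated cells. It had 0 and 0.787 in control cells, and 2 and 0.306 in SMF-treated cells. With protein-coding transcripts alone, Fos was not called in any comparison, at -3.04 for control and -1.90 for SMF-treated against unstimulated cells, and 1.14 for SMF-treated against control cells. The gene sum was above every cultured value in each fresh library, and the coding level was not.

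Fosb encodes a FOS subunit also known from early responses and lies on chromosome 7 (19302696 to 19310051, minus strand). It stood at 17.2 and 5.96 FPKM in unstimulated cells, 0.744 and 0.572 FPKM in control cells, and 0.476 and 2.40 FPKM in SMF-treated cells. Fresh cells were above both cultured groups, and the cultured groups overlapped. The control difference was -2.76 (SE 0.72, adjusted p = 0.0696 by limma with Benjamini-Hochberg adjustment), and -3.38 and -2.15 within the 2 runs. The call was lost without Control 2, at -2.69. For SMF-treated against unstimulated cells it was -2.33, a call lost without Unstimulated 1, at -1.63, or without SMF 1, at -1.72. A 1-exon retained-intron transcript made up 9.75 of the 17.2 FPKM in Unstimulated 1 and 1.16 of the 5.96 FPKM in Unstimulated 2, so the spread between these libraries was smaller in the coding transcript, at 7.43 and 4.80 FPKM. The SMF value exceeded the control value by 0.44, with a 95% interval from -1.32 to 2.19.

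Fosl2 encodes FRA-2, a FOS-related subunit that lacks the strong activation domain of Fos, and lies on chromosome 5 (32135801 to 32157842, plus strand). Its pattern ran the other way, with 1.35 and 3.89 FPKM in unstimulated cells, 10.1 and 9.85 FPKM in control cells, and 12.6 and 6.78 FPKM in SMF-treated cells. Fresh cells were below all cultured libraries, and the cultured groups overlapped. Control cells exceeded unstimulated cells by 1.69 on the log2 scale (SE 0.56, adjusted p = 0.116 by limma with Benjamini-Hochberg adjustment), and by 2.24 and 1.15 within the 2 runs. The call was lost at 1.16 without Unstimulated 1, at 1.68 without Control 1 and at 1.71 without Control 2, and in the fit with the run as a term. The difference was larger in the coding transcript alone, which stood at 0.391 and 0.730 FPKM in unstimulated cells, 5.69 and 7.28 FPKM in control cells, and 9.47 and 5.99 FPKM in SMF-treated cells, a control difference of 2.26. In fresh cells a retained-intron transcript of 1 exon held 71.0% and 81.3% of the gene value, and in the cultured cells it held between 3.82% and 19.9%. SMF-treated cells exceeded unstimulated cells by 1.60, a call lost without Unstimulated 1 (1.07), without SMF 1 (1.20) and without either control library (1.60). Against control cells the SMF value was -0.09, with a 95% interval from -1.44 to 1.26.

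**Figure D3:**
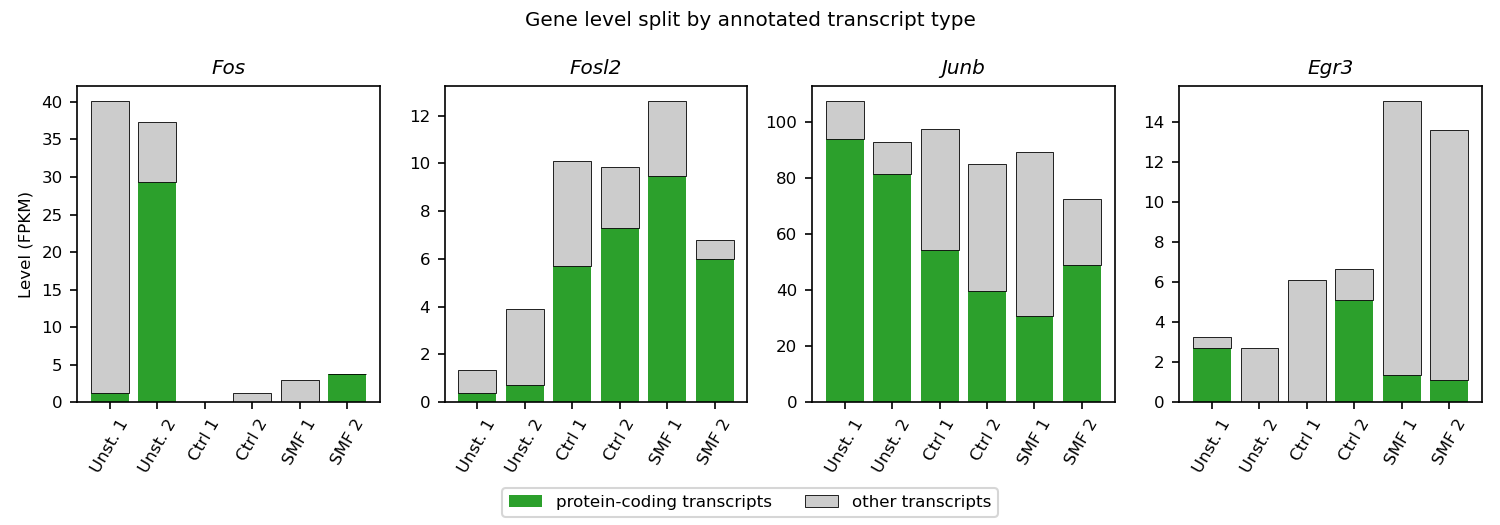
Gene level in FPKM (vertical axes, from 0) of Fos, Fosl2, Junb and Egr3 in each library, split into protein-coding transcripts (green) and other annotated transcripts (grey). The coding part of Junb goes from 94.1 and 81.6 FPKM in unstimulated cells to 30.9 and 49.0 FPKM in SMF-treated cells while its sum changes little, and most of the Egr3 level in the SMF libraries is listed under a 1-exon retained-intron transcript.

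Among the JUN genes, which supply the partners of FOS in AP-1, Jun differed between fresh and cultured cells and the sums of Junb and Jund did not pass the test. Jun lies on chromosome 4 (95049034 to 95052222, minus strand) and is a gene of 1 exon. It stood at 21.3 and 22.6 FPKM in unstimulated cells, 8.33 and 3.42 FPKM in control cells, and 6.43 and 2.86 FPKM in SMF-treated cells. Fresh cells were above both cultured groups, which overlapped. The control difference was -1.84 (SE 0.56, adjusted p = 0.0977 by limma with Benjamini-Hochberg adjustment), and -1.26 and -2.42 within the 2 runs. Without Unstimulated 1 (-1.88), Unstimulated 2 (-1.79) or Control 2 (-1.30) it was not called. The SMF difference from unstimulated cells was -2.10 (adjusted p = 0.0422, the same test), lost without Unstimulated 1 (-2.14), Unstimulated 2 (-2.06) or SMF 2 (-1.63). SMF-treated against control cells gave -0.26 with a 95% interval from -1.62 to 1.09, and the sign turned without Control 1 (0.28) and without SMF 2 (0.21).

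A gene on the opposite strand faced Jun. Junos, an antisense noncoding gene, shares 232 bases with Jun, and the exon that holds these bases was the only exon of Junos with coverage above 0 in any library. Junos stood at 862 and 611 FPKM in unstimulated cells, 102 and 69.6 FPKM in control cells, and 26.4 and 44.0 FPKM in SMF-treated cells. These values were 4.10 to 40.5 times those of Jun in the same library. The shared exon had 245 and 334 reads per base in unstimulated cells against 1.92 and 3.93 over the whole of Jun, 26.9 and 47.5 against 0.699 and 0.742 in control cells, and 25.8 and 37.8 against 2 and 0.782 in SMF-treated cells. Junos fell by 3.09 in control cells (adjusted p = 0.0123 by limma with Benjamini-Hochberg adjustment) relative to unstimulated cells, in the same direction as Jun. In SMF-treated cells it fell by 4.37 (adjusted p = 0.00338, the same test). The level of Jun thus rests on which strand the reads of this locus were given to, and the part of that assignment in the result was not tested.

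Jund lies on chromosome 8 (70698949 to 70700616, plus strand), also has 1 exon, and faced an antisense noncoding gene along most of its length. Its own level was 110 and 93.1 FPKM in unstimulated cells, 166 and 93.8 FPKM in control cells, and 81.3 and 76.7 FPKM in SMF-treated cells. The control and unstimulated ranges overlapped, and the SMF libraries were below all others. Gm11175, which shares 877 bases with Jund, stood at 17816 and 13823 FPKM in unstimulated cells, 37176 and 20737 FPKM in control cells, and 6745 and 6215 FPKM in SMF-treated cells. It was 81.0 to 225 times as high as Jund, and it was highest and lowest in the same libraries as Jund's highest and lowest.

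Neither difference of Jund passed the test against unstimulated cells, at 0.30 for control cells (95% interval from -0.50 to 1.10) and -0.35 for SMF-treated cells. SMF-treated cells had -0.65 against control cells (adjusted p = 0.312 by limma with Benjamini-Hochberg adjustment), which became a call at -1.06 without Control 2. Without Control 1 the control difference from unstimulated cells turned to -0.11. Gm11175 differed by -2.10 between SMF-treated and control cells (adjusted p = 0.136, the same test).

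Junb lies on chromosome 8 (84974484 to 84978718, minus strand). Its sum stood at 107 and 93.0 FPKM in unstimulated cells, 97.4 and 85.2 FPKM in control cells, and 89.4 and 72.6 FPKM in SMF-treated cells, where control cells overlapped both other groups and SMF-treated cells were below unstimulated cells. The differences from unstimulated cells were -0.13 in control cells (95% interval from -0.76 to 0.49) and -0.31 in SMF-treated cells, and neither was called. The sum held 2 transcripts that went opposite ways. The 1-exon mRNA stood at 94.1 and 81.6 FPKM in unstimulated cells, 54.2 and 39.6 FPKM in control cells, and 30.9 and 49.0 FPKM in SMF-treated cells, so all cultured libraries were below the fresh ones. A noncoding transcript of 2 exons stood at 13.4 and 11.5 FPKM in unstimulated cells, 43.2 and 45.6 FPKM in control cells, and 58.5 and 23.6 FPKM in SMF-treated cells, with all cultured libraries above the fresh ones.

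With the mRNA alone, Junb differed from unstimulated cells by -0.91 in control cells, which was not called, and by -1.15 in SMF-treated cells, which was called. The noncoding transcript is the only part of Junb that faces another gene. It shares 173 bases with Prdx2, a peroxiredoxin gene, which stood at 6.05 and 2.93 FPKM in unstimulated cells, 28.4 and 34.9 FPKM in control cells, and 78.3 and 64.1 FPKM in SMF-treated cells. Prdx2 and the noncoding transcript were both higher in every cultured library than in the fresh ones, Prdx2 by 2.62 on the log2 scale in control cells (adjusted p = 0.0194 by limma with Benjamini-Hochberg adjustment). Whether reads of Prdx2 entered the noncoding transcript was not tested.

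**Figure D4:**
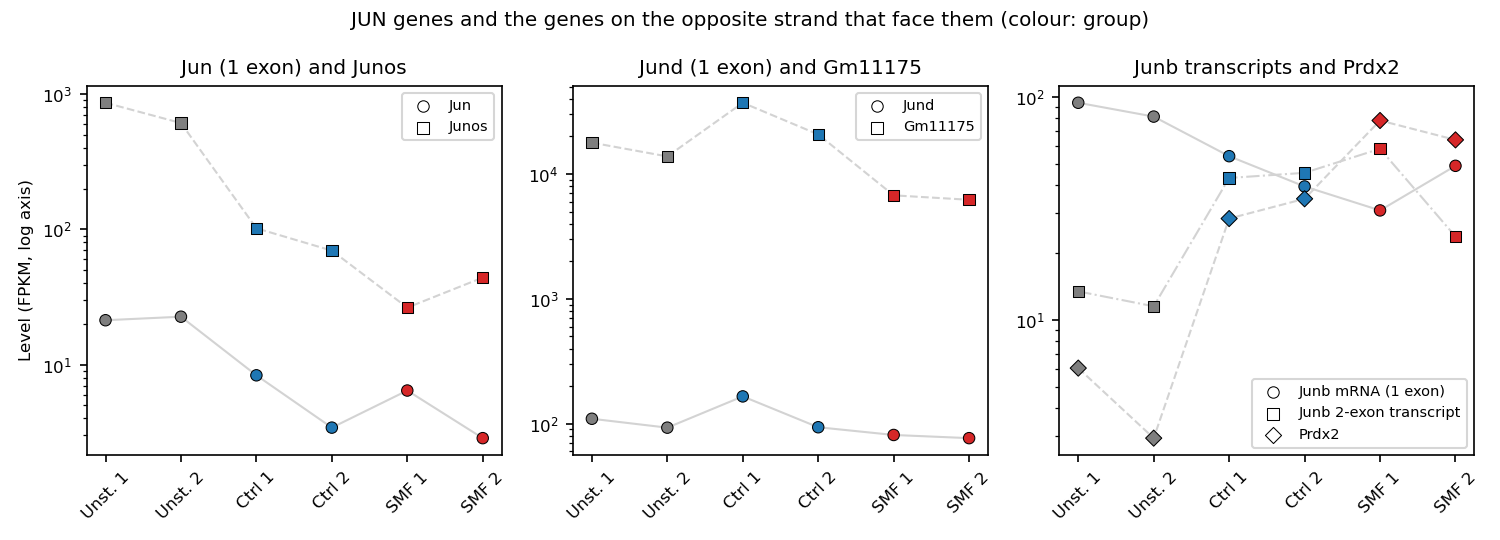
Levels in FPKM on a log axis, by library, of Jun with Junos, of Jund with Gm11175, and of the Junb transcripts with Prdx2; lines join values of the same gene or transcript and colours give the group (grey unstimulated, blue control, red SMF). Junos and Gm11175 lie above the gene they face in all 6 libraries, and the Junb mRNA and the 2-exon transcript cross.

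The other 7 genes, Ier2 among them, had no exon facing an annotated exon on the opposite strand. To set Jun and Jund beside like genes, 58 pairs were taken in which a protein-coding gene of 1 exon faces a noncoding gene over at least 200 bases. Of the 28 to 36 pairs measured in a library, the facing gene had the higher level in 62.5% to 82.8%. The facing gene was thus the higher at most such pairs, which include those of Jun and Jund. Jun, Jund, Ier2 and the Junb mRNA have no intron whose splicing shows the strand of a read, so their levels, and their places in the order of levels, rest on how the strand of the reads was assigned. The same holds for the 1-exon retained-intron transcripts of Egr3, Fosb and Fosl2. These held 91.1% and 92.0% of Egr3 in the SMF libraries and 56.8% of Fosb in Unstimulated 1. In fresh cells they held 71.0% and 81.3% of Fosl2. Whether that assignment was right was not tested.

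Of the EGR genes, Egr2 was called higher in both cultured groups than in fresh cells, Egr3 was called higher in SMF-treated cells than in either other group, and Egr1 was not called. Egr1, an early zinc finger factor on chromosome 18, stood at 8.40 and 5.21 FPKM in unstimulated cells, 11.7 and 11.3 FPKM in control cells, and 7.15 and 9.36 FPKM in SMF-treated cells. Control cells were above both other groups, and the SMF and unstimulated values overlapped. No difference of Egr1 was called, at 0.71 for control against unstimulated cells (SE 0.43, 95% interval from -0.33 to 1.74) and -0.44 for SMF-treated against control cells. SMF-treated against unstimulated cells gave 0.27, which turned to -0.03 without Unstimulated 2. All of its level came from the same coding transcript of 2 exons, with 1.31 to 3.99 reads per base over the second exon.

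Egr2 lies on chromosome 10 (67535475 to 67542188, plus strand) and its transcripts are all annotated as coding. It was listed at 0 in Unstimulated 1 and stood at 1.56 FPKM in Unstimulated 2, 5.02 and 6.67 FPKM in control cells, and 7.61 and 11.5 FPKM in SMF-treated cells. The 3 groups did not overlap, and the level was lowest in fresh cells and highest in SMF-treated cells. Control cells exceeded unstimulated cells by 2.09 (SE 0.63, adjusted p = 0.0946 by limma with Benjamini-Hochberg adjustment), and by 2.59 and 1.59 within the 2 runs. The call was lost at 1.41 without Unstimulated 1, 2.26 without Control 1 and 1.91 without Control 2. SMF-treated cells exceeded unstimulated cells by 2.70 (adjusted p = 0.0289, the same test), in all 6 fits that left out a library. The difference of 0.61 between SMF-treated and control cells was not called (95% interval from -0.91 to 2.13).

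Egr3 lies on chromosome 14 (70077203 to 70082614, plus strand). It stood at 3.28 and 2.71 FPKM in unstimulated cells, 6.11 and 6.65 FPKM in control cells, and 15.0 and 13.6 FPKM in SMF-treated cells. The groups did not overlap and the 2 libraries of each lay close together. SMF-treated cells exceeded unstimulated cells by 1.94 (SE 0.41, adjusted p = 0.0222 by limma with Benjamini-Hochberg adjustment), called in all 6 fits that left out a library. Control cells had 0.89 more than unstimulated cells on the log2 scale, which was not called, with 0.73 and 1.04 within the 2 runs. SMF-treated cells exceeded control cells by 1.05 (adjusted p = 0.226, the same test), a call lost without Control 1 (1.001), Control 2 (1.11), SMF 1 (0.99) or SMF 2 (1.12). With every library at the same median the difference was 0.71 and was not called.

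As the values were split among transcripts, the Egr3 difference was listed under a retained-intron transcript of 1 exon. This transcript stood at 0.549 and 2.71 FPKM in unstimulated cells, 6.11 and 1.57 FPKM in control cells, and 13.7 and 12.5 FPKM in SMF-treated cells. The coding transcripts summed to 2.73 and 0 FPKM in unstimulated cells, 0 and 5.08 FPKM in control cells, and 1.35 and 1.09 FPKM in SMF-treated cells. These ranges overlapped. With coding transcripts alone Egr3 was not called in any comparison, at 0.20 for SMF-treated against unstimulated cells and -0.15 for SMF-treated against control cells. The last exon of the shorter coding transcript lies within the span of the retained-intron transcript, so reads there can be given to either. The longer coding transcript ends at 70082550, near the end of the retained-intron transcript at 70082614. In the control libraries the longer coding transcript held 0 and 4.99 FPKM. Which transcript carried the difference cannot be told from these values. Coverage of the last exon of the shorter coding transcript was 0.0495 and 0.471 reads per base in unstimulated cells. It was 0.512 and 1.43 in control cells, and 4.26 and 3.42 in SMF-treated cells. Unlike FPKM, these reads per base are not scaled to the size of the library. Summed coverage was 67.4 and 132 Mb in unstimulated, 64.4 and 172 Mb in control, and 259 and 227 Mb in SMF libraries.

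Ier2, an early gene for a nuclear protein, lies on chromosome 8 (84661331 to 84662852, minus strand) and has 1 exon. It stood at 28.5 and 19.2 FPKM in unstimulated cells, 19.9 and 23.4 FPKM in control cells, and 47.4 and 37.4 FPKM in SMF-treated cells. Both SMF libraries were above the other 4, and the fresh and control groups overlapped. SMF-treated cells exceeded control cells by 0.93 on the log2 scale (SE 0.35, adjusted p = 0.213 by limma with Benjamini-Hochberg adjustment), just under the fold required for a call. With every library at the same median the difference was 0.59 and was not called, and with TPM it was 1.08 and was called. The difference from unstimulated cells was 0.82 and became a call at 1.10 without Unstimulated 1. Control against unstimulated cells gave -0.11, with a 95% interval from -0.95 to 0.73, and 0.16 without Unstimulated 1.

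Markers of B and NK cells and some of myeloid cells were lower in the cultured cells, as were Fos, Fosb and Jun. Other markers did not all go this way. Against fresh cells, Foxp3 and the platelet marker Pf4 were not called in either cultured group. Cd4 and the erythroid marker Alas2 were called lower in SMF-treated cells but not in control cells. All 5 B cell markers were called lower in both cultured groups, with a summed level of 147 and 111 FPKM in unstimulated cells, 23.3 and 7.78 FPKM in control cells, and 4.50 and 2.43 FPKM in SMF-treated cells, and Ms4a1 was at 0 in both SMF libraries. Of the 6 myeloid markers, 4 were tested and 2 were called lower in each cultured group, with a sum of 116 and 149 FPKM in fresh cells and 41.1 to 53.8 FPKM in cultured cells. In cultured cells this sum was nearly all Csf1r, which was not called, and Lyz2 was at 0. Both NK cell markers, Ncr1 and Klrb1c, were at 0 in the cultured libraries and summed to 13.8 and 7.66 FPKM in fresh cells. Klrb1c was called lower in both cultured groups. Ncr1, at 10.8 and 0.947 FPKM in the fresh libraries, was called in neither. The part of these cell types in the results for the 3 genes was not tested. In bulk RNA, fewer cells of a type and less RNA of a gene per cell cannot be told apart.

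Among 13 other bZIP factors, of which 11 were tested, 1 was called in control against unstimulated cells and 5 were called higher in SMF-treated against control cells. Of all genes tested, 24.8% were called in the first comparison and 12.5% were called higher in the second. Crem, a CREB-related factor, stood at 0 and 1.28 FPKM in unstimulated cells, 9.94 and 16.1 FPKM in control cells, and 84.7 and 96.2 FPKM in SMF-treated cells, differences of 3.18 and 2.74 on the log2 scale. Atf3, a stress-induced partner of JUN, exceeded the control value by 3.07 in SMF-treated cells, at 0 and 3.58 against 14.5 and 19.8 FPKM. Atf2 (1.55) and Batf (1.47), a JUN partner of T cells, were also called higher in SMF-treated cells. The bZIP list had a median of 1.06 between SMF-treated and control cells, beside 0.32 over all genes tested, and none of its genes had an adjusted p under 0.05 in that comparison by limma with the Benjamini-Hochberg adjustment. Of the EGR partners, Nab2 was called higher in control than in unstimulated cells by 1.26 and Nab1 higher with the SMF than in control cells by 1.15. Egr4 was listed at 0 in all 6 libraries.

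Other early genes were called in both directions between fresh and control cells. Of 22 tested, 5 were called higher and 7 lower in control cells, beside 12.3% and 12.6% of all genes. Their median was -0.00102 on the log2 scale. Klf2, a factor of resting T cells, stood at 52.7 and 76.5 FPKM in fresh cells and at 0 and 0.524 FPKM in control cells, a difference of -5.71. The orphan nuclear receptors Nr4a2 (4.74), Nr4a3 (4.18) and Nr4a1 (2.80), which are known targets of the T cell receptor, were called higher in control cells. In SMF-treated against control cells 3 of the 22 were called, all higher, beside 12.5% of all genes called higher. They were Mcl1 (1.10), Rgs1 (1.08) and Zfp36 (1.02), the last an RNA-binding protein that shortens the life of early transcripts. Zfp36 stood at 27.8 and 30.9 FPKM in unstimulated cells, 3.67 and 6.15 FPKM in control cells, and 11.2 and 10.3 FPKM in SMF-treated cells.

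Kinases and factors between the receptor and these genes were called at shares set here beside 12.3% of all genes higher and 12.6% lower in control against unstimulated cells, and 12.5% higher in SMF-treated against control cells. Of 18 genes from RAS to ERK and SRF, 2 were called lower in control than in unstimulated cells, Mkl1 (-1.68), a coactivator of SRF, and Srf itself (-1.14), and 2 were called higher with the SMF than in control cells, Rps6ka1 (1.25) among them. Of 8 genes of the JNK and p38 branches, Mapkapk2 was called higher in control cells (1.17), and Map2k4 (1.76) and Mapk9 (1.49), which lead to JUN phosphorylation, in SMF-treated cells. Among 10 inhibitors of these kinases, Spry1 (3.23), Dusp4 (2.71) and Dusp5 (1.95) were called higher and Dusp1 (-3.72) lower in control cells. Dusp1, a phosphatase that is itself an early gene, stood at 13.1 and 22.2 FPKM in fresh cells and between 0 and 1.17 FPKM in the cultured libraries. Dusp6 (2.01) and Spry2 (1.31) were called higher in SMF-treated cells.

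Of 4 known EGR or AP-1 targets, 3 were tested. Fasl (2.14) and Cblb (1.68) were called higher in control than in unstimulated cells, none was called between SMF-treated and control cells, and Il2 was listed at 0 in all 6 libraries. Of 10 heat shock genes, Hspd1 (2.42), Hsp90ab1 (1.47) and Hsp90aa1 (1.38) were called higher and Hspa1a (-2.57) lower in control cells, where Hspa1a stood at 2.30 and 23.3 FPKM in the 2 fresh libraries and at 0.345 and 0.686 FPKM in control cells. In SMF-treated cells 4 of the 10 were called higher than in control cells, Dnaja1 (1.67), Hspd1 (1.54), Hspa8 (1.28) and Hspe1 (1.03). Of all genes tested, 12.3% were called higher and 12.6% lower in control vs unstimulated cells, and 12.5% higher in SMF-treated vs control cells. The medians of the kinase, inhibitor and heat shock lists between SMF-treated and control cells lay between 0.37 and 0.93, and that of all genes tested at 0.32.

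**Figure D5:**
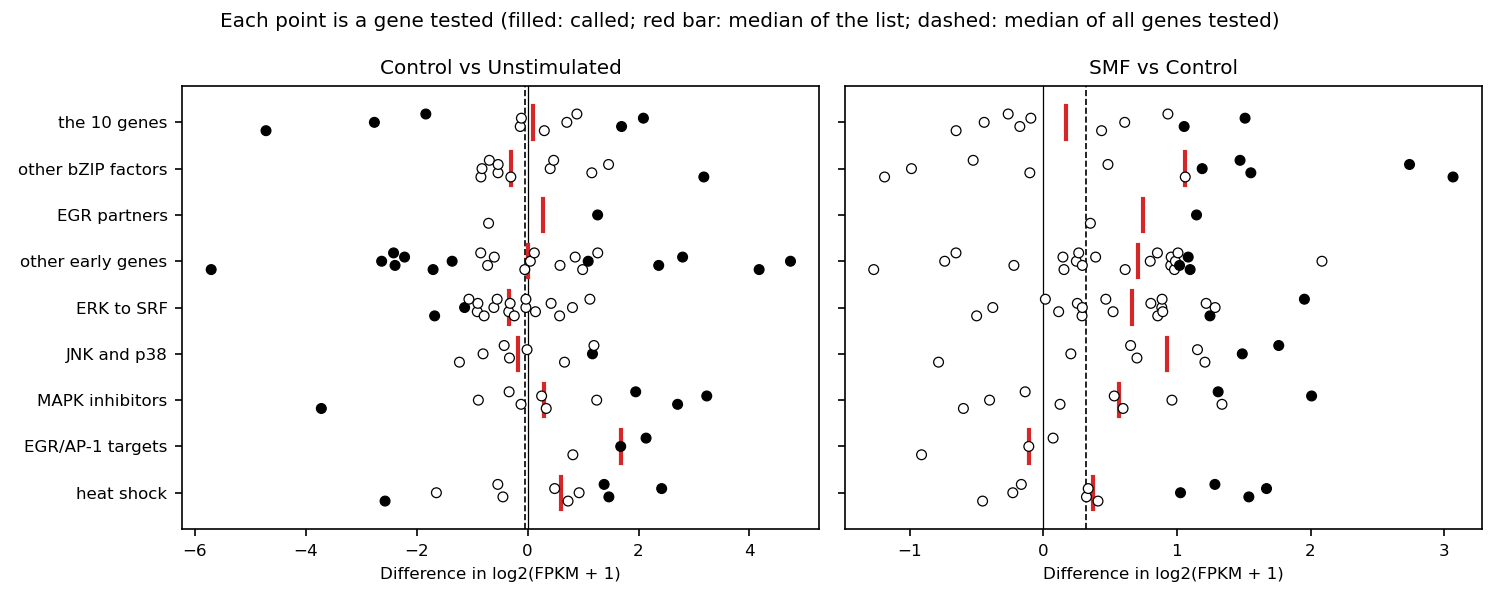
Difference in log2(FPKM + 1) for every tested gene of the 10 members and of the other lists (rows), for control against unstimulated cells (left) and SMF-treated against control cells (right). Filled points are called, red bars are list medians and the dashed line is the median of all genes tested, at -0.05 on the left and 0.32 on the right, where most lists lie to the right of the line.

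The profile that averages the 10 genes, each scaled to its own mean and spread, lay at 0.13, 0.14 and 0.14 in the first replicates of the 3 groups and between -0.20 and -0.06 in the second. It did not follow the groups, since members went both ways. Of 9297 genes outside the lists with a mean of at least 5 FPKM, Bach2 (r = 0.98), Ankfy1 (0.97), Gm15480 (0.97), Smcr8 (0.97) and Capn12 (0.96) were most like it, and 37 genes had r over 0.9. These are descriptions over 6 libraries.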

How the data were processed

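RNA-seq of 6 libraries was quantified by the authors. The submitters' processing notes name Trimmomatic 0.36, HISAT2, StringTie and mm10, and the file headers give StringTie 1.3.5 restricted to the GENCODE M19 annotation with the --fr strand setting. The labels name a stranded total RNA kit (SMARTer Pico Input). The deposited files give FPKM, TPM and coverage per transcript and coverage per exon, 1 library a file, and no counts. A table whose 3 value columns match no sample label was not used. FPKM was summed over the transcripts of a gene (54446 genes). Transcript types came from GENCODE M21 (54409 genes matched, 37 not).

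log2(FPKM + 1) of the 14991 genes that averaged 1 FPKM or more was fitted with limma 3.58.1 (R 4.3.3) over all 6 libraries with a variance trend, and p-values were adjusted by Benjamini-Hochberg over all genes tested. Called means a difference of at least 2-fold and an unadjusted p of at most 0.05, the limits of the study's methods. The fold is on the log2(FPKM + 1) scale, which understates changes of low genes. The pipeline was tested on simulated data for SMF vs Control over 14991 genes. There 93.9% of 8-fold, 83.6% of 4-fold and 28.4% of 2-fold changes and 4.64% of unchanged genes were called. Apart from these changes, all simulated libraries had the same base level per gene with independent noise. They held no difference in run, depth or scaling, so the shares called do not cover such differences between the real libraries.

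The members and lists were chosen with earlier results of these data known. Named genes were all 10 members, the genes facing them, at most 4 called genes with the largest differences a list in control vs unstimulated cells and in SMF-treated vs control cells, the 5 most similar genes, and markers. Figures used matplotlib 3.10.9. Sequences are from the RefSeq promoter table. Alternatives covered the pseudocount, filter, unit, scaling, variance model, block, libraries and transcripts. Values of some genes of the lists are not reported here.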

Additional observations from a re-analysis of the deposited data

How the results depend on the processing

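Numbers of the 10 genes called are given in this paragraph, as values of limma's test. In control vs unstimulated cells 5 genes were called, and 4 or 5 under every other setting, and 1 (without Control 2) to 5 when 1 library was left out, with 2 without Unstimulated 1 and 3 without Control 1. In SMF-treated vs unstimulated cells 6 genes were called, and 5 or 6 under other settings, where coding transcripts alone gained Junb and lost Fos and Egr3. With 1 library left out the number was 4 to 5, with Ier2 gained without Unstimulated 1. In SMF-treated vs control cells 2 genes were called, Fos and Egr3, both higher. The number was 1 with a pseudocount of 0.1 (Egr3) and with a mean of at least 5 FPKM (Fos). It was also 1 with only the 4 libraries compared. With the same FPKM sum in every library it was 1 as well, but this was Jund, called lower, while Fos and Egr3 were not called. It was 0 with the same median in every library or with coding transcripts only. At each of these 2 settings 1 of the 10 genes had an unadjusted p under 0.05. The number was 3 with TPM, and 0 to 2 with 1 library left out. The causes were not tested.

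With the replicate number as a block, the 10 genes gave 5, 6 and 1 calls, the last without Egr3, whose difference stayed at 1.05. The numbers share a header date only between unstimulated and control libraries, and the deviations of same-numbered libraries correlated at 0.0963, 0.0301 and 0.0206, so they were not taken as pairs. A replicate block by run over the 4 unstimulated and control libraries gave 4 calls, without Fosl2.

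Signs turned for 1 called difference, that of Egr3 between SMF-treated and control cells, which was -0.15 with coding transcripts, and for uncalled ones. In SMF-treated vs control cells Fosl2 was 0.0276 with TPM, 0.20 with coding transcripts and -0.50 to 0.31 with 1 library left out, Jun ran from -0.80 to 0.28 (0.21 without SMF 2) and Fosb from -0.17 to 1.04 with 1 library left out. Egr1 in SMF-treated vs unstimulated cells was -0.19 with the same FPKM sum and -0.0336 to 0.56 with 1 library left out. In control vs unstimulated cells Ier2 ran from -0.39 to 0.16 and Jund from -0.11 to 0.71.

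The data hold 2 libraries a group and no read counts. In both control libraries the longest exon of Fos, Fosb and Jun had under 1 read per base. In the main fit, limma's standard errors for the members ran from 0.26 (Junb) to 0.72 (Fosb) on the log2 scale. Differences of that size were poorly resolved. A difference below 2-fold is never called under the rule used, whatever its precision. The simulated 2-fold changes lay at that limit, so the 28.4% called does not measure resolution below it.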
